A study of Mus musculus with 288 samples.

Results

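The 10 genes described here, Adm, Bnip3, Bnip3l, Ankrd37, Car9, Ndrg1, Kdm3a, P4ha1, P4ha2 and Ddit4, are widely used as readouts of the hypoxia-inducible factors (HIFs). They were chosen by name, and all 10 were found among the 35904 genes of the deposited tables. Their transcripts were quantified in 6 tissues (heart, lung, cerebellum, liver, kidney and muscle) of wild type C57BL/6J mice, male and 8 weeks old per the study's methods. The mice had spent 7 days either in room air (normoxia) or in intermittent hypoxia (IH), in which oxygen was cycled between 21% and 8% during the inactive light phase. Both groups were then kept in constant darkness and normoxia for 2 days, and tissues were taken every 3 hours on the second of these, from 1:30 to 22:30, so every value was measured more than a day after the last hypoxic cycle. There were 3 libraries per tissue, treatment and time point, which gives 24 libraries per tissue and treatment, labelled by replicate number. The 6 tissues may come from the same mice, which the labels do not say.

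HIFs are heterodimers of an oxygen-labile alpha subunit, HIF-1 alpha (Hif1a) or HIF-2 alpha (Epas1), and a stable partner, ARNT. In oxygen, prolyl hydroxylases (the Egln genes) mark the alpha subunit for destruction by the VHL ubiquitin ligase. In hypoxia the dimer accumulates and binds hypoxia response elements, which share the core ACGTG or GCGTG, in its target genes. The targets serve different ends. Adm encodes adrenomedullin, a vasodilator peptide. Bnip3 and Bnip3l (NIX) encode receptors on the outer mitochondrial membrane that mark mitochondria for autophagy, and Bnip3l clears the mitochondria of maturing red cells. Car9 encodes carbonic anhydrase IX, a cell surface enzyme that sets extracellular pH. Kdm3a encodes a histone H3 lysine 9 demethylase, and Ankrd37 a small ankyrin repeat protein. P4ha1 and P4ha2 encode catalytic subunits of the collagen prolyl 4-hydroxylase. Ndrg1 is a stress response gene of epithelia and Schwann cells, and Ddit4 (REDD1) encodes an inhibitor of mTORC1 signalling that glucocorticoids and other stresses also induce.

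The deposited values are TPM, the abundance of a gene's transcripts corrected for their length and set to nearly the same total in each library, here 989211 to 999188. With no counts in the files the depth behind each value is unknown. The number of genes above 0 TPM differed with treatment in opposite directions in a pair of tissues. It was 22694 ± 737 in normoxia and 25455 ± 1529 after IH in the lung, and 25124 ± 1719 and 21447 ± 688 in the heart (SD, n = 24 each). Each tissue held its own marker transcripts, with every marker of its list above 0 at the median. A pair of IH libraries stood apart. In the liver, replicate 2 at 13:30 had a summed level of 8 liver markers of 1167 TPM against at least 20404 TPM in the other 23, and 5520 TPM of heart markers against at most 42.8 TPM. In the cerebellum, replicate 3 at 1:30 had 573 TPM of cerebellar markers against at least 2327 TPM, and 6312 TPM of heart markers against at most 3755 TPM. Values without these libraries are given where they change a call or a list count, and for the changes after IH in these tissues.

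All 10 genes are protein-coding. In GENCODE release M21 on GRCm38, Adm lies on chr7:110627661-110629820, Bnip3 on chr7:138890836-138909519, Bnip3l on chr14:66985239-67008877 and Ankrd37 on chr8:45996902-46005707. Car9 lies on chr4:43506966-43513729, Ndrg1 on chr15:66929318-66969640 and Kdm3a on chr6:71588972-71632990. P4ha1 lies on chr10:59323296-59373304, P4ha2 on chr11:54100095-54131665 and Ddit4 on chr10:59949669-59951834. Adm, Bnip3, Ankrd37, Car9 and Ndrg1 each overlap other annotated genes on the opposite strand, and whether the quantification used strand is not given in the sources used here. Of the 10 genes, 8 had a promoter window of 300 bases (250 before and 50 after the start) in the RefSeq table for GRCm38.p6. Each of these 8 had at least 1 match to ACGTG or GCGTG, read on both strands, in at least 1 window, and 6 had 2 or more. The core is short: 43.8% of all 32851 windows held it and 20.6% held 2 or more. Counted by window in the same way, 8 of the 10 member windows held it. The E-box CACGTG, which the clock proteins CLOCK and ARNTL bind and which contains ACGTG, lay in 1 member window, that of Bnip3, and in 7.15% of all windows. The 250 bases before the start are shown for Car9, Kdm3a and Ankrd37, which were higher in the lung after IH, and for Bnip3, which holds the E-box and the most matches. Capitals mark every ACGTG or GCGTG on either strand, and overlapping matches run together.
Car9, chr4:43506776-43507025, plus strand: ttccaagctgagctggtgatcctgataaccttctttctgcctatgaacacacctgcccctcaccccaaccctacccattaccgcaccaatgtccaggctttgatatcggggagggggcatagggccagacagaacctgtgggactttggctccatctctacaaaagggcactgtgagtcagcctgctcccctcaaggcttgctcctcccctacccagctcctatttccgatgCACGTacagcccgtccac
Kdm3a, chr6:71632918-71633167, minus strand: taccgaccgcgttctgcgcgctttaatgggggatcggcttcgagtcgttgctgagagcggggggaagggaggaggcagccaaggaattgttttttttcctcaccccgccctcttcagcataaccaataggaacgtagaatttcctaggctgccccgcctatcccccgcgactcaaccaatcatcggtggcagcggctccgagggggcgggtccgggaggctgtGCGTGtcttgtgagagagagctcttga
Ankrd37, chr8:45999851-46000100, minus strand: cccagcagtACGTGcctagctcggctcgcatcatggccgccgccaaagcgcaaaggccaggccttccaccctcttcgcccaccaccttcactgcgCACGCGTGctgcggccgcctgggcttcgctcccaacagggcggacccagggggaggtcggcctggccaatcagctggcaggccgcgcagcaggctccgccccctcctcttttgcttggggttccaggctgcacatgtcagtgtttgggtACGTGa
Bnip3, chr7:138909507-138909756, minus strand: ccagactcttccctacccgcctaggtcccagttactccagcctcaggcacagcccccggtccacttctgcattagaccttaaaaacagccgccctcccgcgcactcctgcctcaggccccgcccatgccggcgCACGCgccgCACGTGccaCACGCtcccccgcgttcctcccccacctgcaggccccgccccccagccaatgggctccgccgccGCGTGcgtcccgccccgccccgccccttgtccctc
Car9 had its match 18 bases before the start and Kdm3a 27 bases before it, in 1 of its 3 windows, the one shown. Ankrd37 had 4 matches, the nearest 6 bases before the start. Bnip3 had 5, and those at 108 and 107 bases before the start are the E-box read on both strands. A match describes letters in these windows and not binding.

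In normoxia the level of the members varied between tissues by between 3.14-fold for Bnip3l and 137-fold for Ndrg1 (mean TPM of the highest over the lowest tissue). Ndrg1 was a kidney transcript, at 786 ± 267 TPM in the kidney and 5.73 ± 4.02 TPM in the liver (SD, n = 24 here and below). Its 24 kidney libraries ran from 367 TPM through a median of 782 TPM to 1303 TPM, above every library of the other 5 tissues, where the next highest mean was 44.6 ± 10.8 TPM in the cerebellum. Car9 was also highest in the kidney, at 11.95 ± 3.07 TPM, followed by the cerebellum at 5.10 ± 2.52 TPM and the lung at 4.00 ± 0.903 TPM. In the liver Car9 stood at 0.634 ± 0.307 TPM, below the minimum mean of 1 TPM for testing. Ankrd37 was highest in the cerebellum, at 18.1 ± 3.74 TPM, and lowest in the liver, at 1.86 ± 0.886 TPM.

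**Figure D1:**
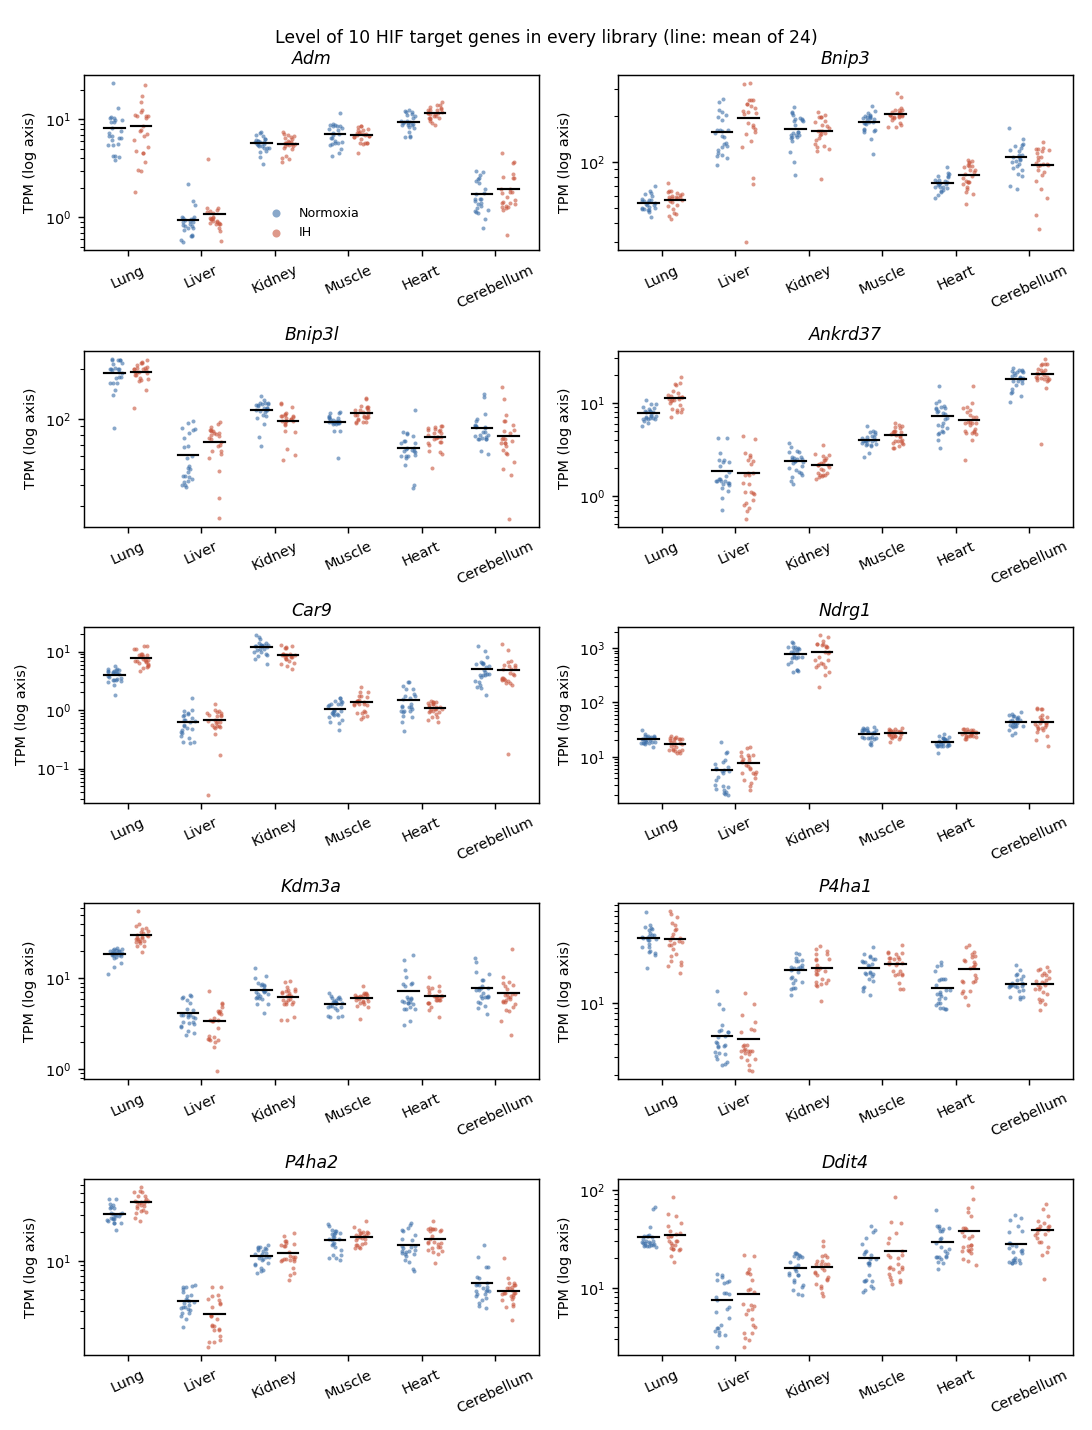
TPM on a log axis of each gene in every library, by tissue, with normoxia in blue, IH in red and a line at the mean of 24 libraries. Ndrg1 in the kidney stands above every other tissue, and Car9 and Kdm3a in the lung are higher after IH.

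Both mitophagy receptors were abundant in every tissue. Bnip3 ranged from 54.2 ± 6.07 TPM in the lung to 183 ± 25.7 TPM in muscle, and Bnip3l from 60.2 ± 19.52 TPM in the liver to 189 ± 33.3 TPM in the lung. Kdm3a, P4ha1 and P4ha2 had their highest means in the lung, at 18.5 ± 2.47, 43.6 ± 11.6 and 30.6 ± 5.83 TPM, and their lowest in the liver, at 4.11 ± 1.29, 4.82 ± 2.53 and 3.86 ± 1.02 TPM. Adm was highest in the heart, at 9.48 ± 1.74 TPM, and Ddit4 was at 32.9 ± 10.52 TPM in the lung, 29.4 ± 11.3 TPM in the heart and 28.0 ± 11.5 TPM in the cerebellum. The liver held the lowest mean TPM of all members except Bnip3. With libraries scaled by the median of ratios, 131 of 150 member differences between tissue pairs passed an adjusted p of 0.05, against 85.4% of all gene tests (limma, Benjamini-Hochberg over all genes).

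TPM as deposited and scaled values ordered some tissues differently. Of the 50 neighbouring pairs in the members' order of mean TPM, 22 differed in the same direction on both scales, 6 differed on both but in opposite directions and 22 did not pass on at least 1 scale. The first place held on both scales for Ndrg1 and Car9 in the kidney, Ankrd37 in the cerebellum, Kdm3a in the lung and Adm in the heart. Bnip3 in muscle stood above the kidney on both scales (0.35 after scaling), but after scaling the kidney stood below the liver by -0.72. The scaled mean of the liver thus lay above that of muscle. For Bnip3l, P4ha1 and P4ha2 the lung did not differ from the next tissue after scaling, by 0.03 (adjusted p = 0.698), 0.10 (adjusted p = 0.361) and 0.02 (adjusted p = 0.82) on the log2 scale. For Ddit4 the lung was lower than the heart by -0.99 after scaling (adjusted p = 8.69e-10), while in TPM as deposited the difference was 0.20 (adjusted p = 0.213). The place of the lung in the order thus depends on the scaling for these 4 genes. The last place of the liver in mean TPM depended on it too. After scaling the tissue next above the liver stood below it for Adm (cerebellum, -0.22), Ankrd37 (kidney, -0.32), Kdm3a (muscle, -0.22) and P4ha2 (cerebellum, -0.58). For Car9 and Bnip3l that tissue did not differ from the liver (muscle, adjusted p = 0.32, and heart, adjusted p = 0.122). For Bnip3l the heart stood at -0.11 against the liver and the cerebellum at -0.50 against the heart, so the scaled mean of the liver was not the lowest. For Ndrg1, P4ha1 and Ddit4 the tissue next above the liver stood above it on both scales.

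The comparison of IH with normoxia over the 24 hours asked whether these genes still differed once the hypoxia had ended. Values are log2 differences, IH minus normoxia, of log2(scaled TPM + 0.5), which understates the change of low genes. Of 59 tests (Car9 in the liver was under the minimum), 20 passed an adjusted p of 0.05, 9 rises and 11 falls, against 31.8% of all gene tests, so the members passed about as often as genes in general. Only Car9 in the lung also passed a 1.5-fold change, against 4.26% of all gene tests over the 6 tissues. In none of the 59 tests did the libraries of both treatments separate fully, as they did in 0.467% of all gene tests. For the alternative fits of these changes and of the response differences below, the share of all genes that passed is not given. The changes went in different directions in different tissues, and no gene rose or fell in all 6.

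**Figure D2:**
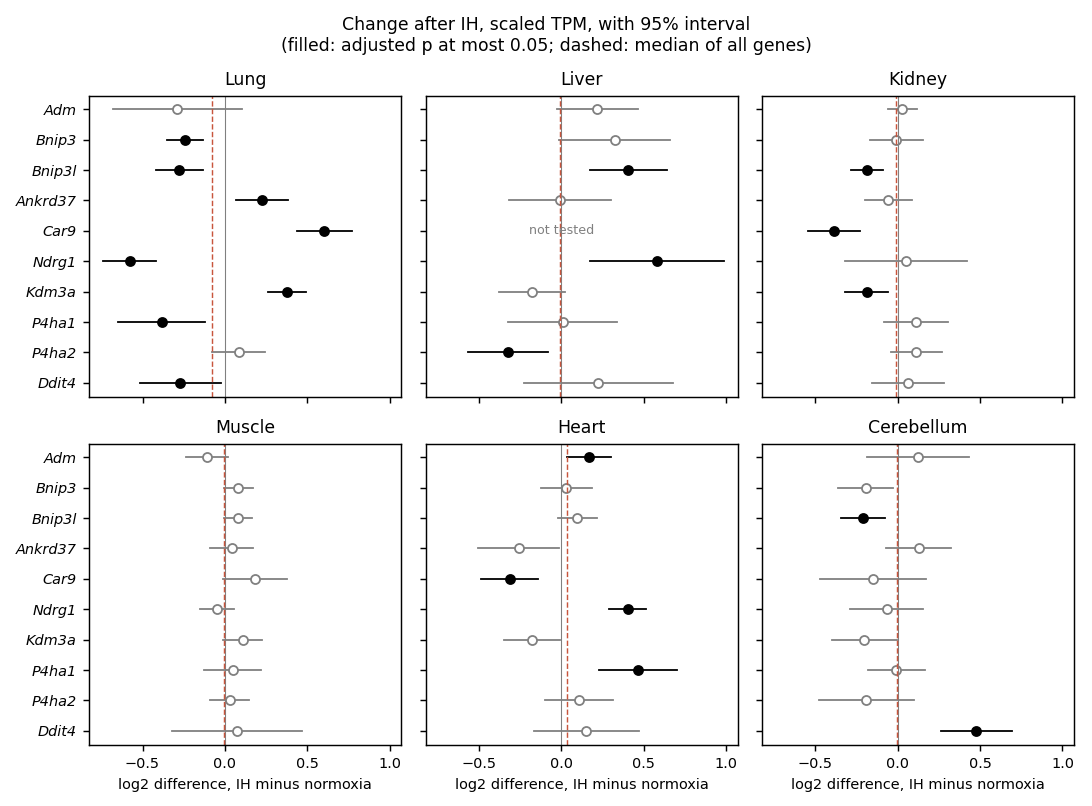
Log2 difference between IH and normoxia of each gene in each tissue, with its 95% interval, filled where the adjusted p is at most 0.05, and the median of all genes as a dashed line. Filled points lie on both sides of 0 in the lung, liver, heart and cerebellum, below 0 in the kidney and nowhere in muscle.

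In the lung Car9, Kdm3a and Ankrd37 rose, and Ndrg1, P4ha1, Bnip3l, Ddit4 and Bnip3 fell. The background was high, since 28.9% of all 15426 lung genes rose and 41.5% fell, so 3 rises and 5 falls among 10 members are near the share of all genes. Car9 ran from 1.85 TPM through a median of 4.24 TPM to 5.68 TPM in normoxia, and from 4.62 TPM through 7.19 TPM to 12.7 TPM after IH. The upper end of normoxia overlaps the lower end of IH, and the mean was higher after IH at 8 of 8 time points. Its log2 change was 0.60 ± 0.08 (SE, adjusted p = 1.6e-08), or 1.52-fold. Kdm3a, the demethylase, ran from 11.2 TPM through 19.0 TPM to 21.5 TPM in normoxia and from 19.8 TPM through 28.5 TPM to 56.0 TPM after IH. The groups overlap only between 19.8 and 21.5 TPM, and the change was 0.38 ± 0.06 (adjusted p = 9.46e-08), again with a higher mean at 8 of 8 time points. Ankrd37 ran from 5.59 TPM through 7.34 TPM to 10.7 TPM and from 7.09 TPM through 11.004 TPM to 18.9 TPM, a change of 0.23 ± 0.08 (adjusted p = 0.01).

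Ndrg1 had the largest fall of the members in the lung. It ran from 14.9 TPM through 21.0 TPM to 31.6 TPM in normoxia and from 11.8 TPM through 17.5 TPM to 24.0 TPM after IH, and most of both ranges is shared. The log2 change was -0.58 ± 0.08 (adjusted p = 2.09e-08), with a lower mean at 8 of 8 time points. P4ha1, the collagen prolyl 4-hydroxylase subunit, changed by -0.38 ± 0.13 (adjusted p = 0.0086). Bnip3l, Bnip3 and Ddit4 changed by -0.28 ± 0.07, -0.24 ± 0.05 and -0.27 ± 0.12 (adjusted p = 0.000616, 9.63e-05 and 0.0461). Adm, at -0.29 ± 0.19 (95% interval -0.68 to 0.10), and P4ha2, at 0.08 ± 0.08 (95% interval -0.08 to 0.24), did not pass.

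The fall of 4 of these genes depended on the scaling. In TPM as deposited, Bnip3, Bnip3l, Ddit4 and P4ha1 stood at 0.06, 0.03, 0.03 and -0.08, none past the threshold (adjusted p = 0.331 to 0.843). Car9, Kdm3a, Ankrd37 and P4ha2 rose by 0.88, 0.67, 0.51 and 0.38, and Ndrg1 fell by 0.28. The median of all lung genes was 0.21 on that scale and -0.08 after scaling, and the members moved up with it. Cell type markers of the lung shifted too. All 8 tested endothelial markers, 7 of 8 lung markers and 7 of 8 erythroid markers fell, where 41.5% of all lung genes fell. The summed erythroid level had a median of 63140 TPM (range 37236 to 165182) in normoxia and 46665 TPM (25750 to 174325) after IH. The endothelial sum had a median of 1809 TPM (1043 to 2354) and 1510 TPM (972 to 1924). The part of these shifts in the members' changes was not tested, and fewer cells of a type cannot be told apart from less RNA per cell in bulk tissue. When the number of detected genes entered the fit, Car9 kept its rise at 0.29 (adjusted p = 0.0361), P4ha2 rose by 0.31 and P4ha1 rose by 0.48, and the other 7 did not pass. Car9 in the lung was the one of the 20 calls that held under all 14 alternatives tried for it. Without the libraries of replicate 1, 4 members passed in the lung, and without those of replicate 2, 5 did.

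**Figure D3:**
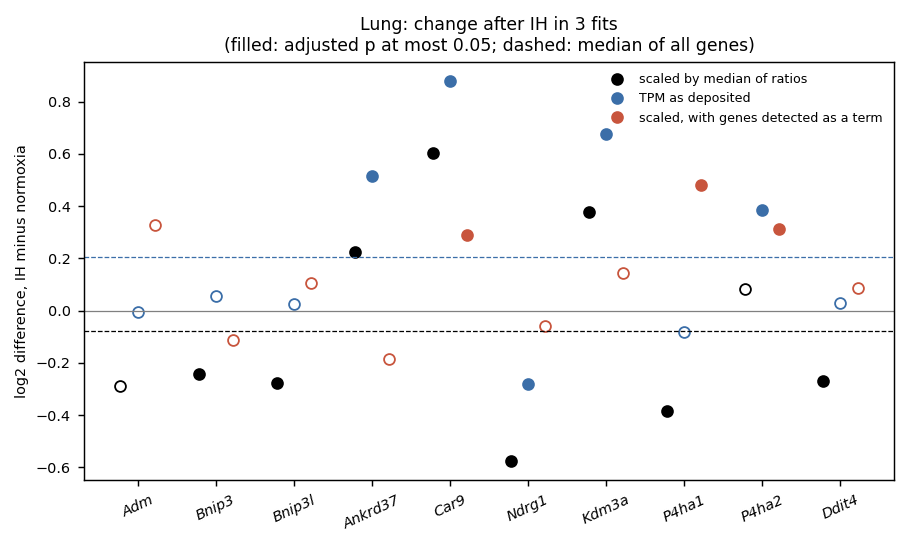
Log2 difference between IH and normoxia in the lung under 3 fits, filled where the adjusted p is at most 0.05, with the median of all genes dashed for the scaled (black) and the deposited (blue) values. Car9 is filled and above 0 in every fit, while P4ha1 is at -0.38, -0.08 and 0.48.

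In the heart the pattern differed from that of the lung. Ndrg1, P4ha1 and Adm rose and Car9 fell, where 28% of all genes rose and 17.3% fell. Ndrg1 ran from 11.9 TPM through 17.8 TPM to 26.0 TPM in normoxia and from 20.8 TPM through 27.4 TPM to 32.6 TPM after IH. The normoxia median lies below every IH library, and the change was 0.40 ± 0.06 (adjusted p = 1.68e-07), with a higher mean at 8 of 8 time points. P4ha1 ran from 8.70 TPM through 12.6 TPM to 25.1 TPM and from 9.68 TPM through 22.2 TPM to 37.0 TPM, ranges that overlap widely, for a change of 0.47 ± 0.12 (adjusted p = 0.00127). Adm rose from 9.48 ± 1.74 TPM to 11.6 ± 1.57 TPM, a change of 0.17 ± 0.07 (adjusted p = 0.0371). Car9, low in the heart at 1.46 ± 0.730 TPM, changed by -0.31 ± 0.09 (adjusted p = 0.00286) and lost its call in TPM as deposited (-0.24, adjusted p = 0.078). In those units Bnip3 (0.15) and Bnip3l (0.22) rose as well, and Ndrg1, P4ha1 and Adm kept their calls. Of 8 endothelial markers 6 rose in the heart, with a summed median of 305 TPM (range 174 to 504) in normoxia and 428 TPM (296 to 554) after IH, and their part in these rises was not tested. Lung markers were at a median of 1.12 TPM in normoxia hearts but reached 2016 TPM in 1 library, against a median of 171613 TPM in the lung. When the number of detected genes entered the fit, 0 of 10 members passed, Ndrg1 at 0.19 (adjusted p = 0.242) and P4ha1 at 0.10 (adjusted p = 0.822). The share of all heart genes that passed in that fit is not given.

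In the liver Bnip3l and Ndrg1 rose and P4ha2 fell, where 10.9% of all genes rose and 13.3% fell. Bnip3l ran from 38.9 TPM through 51.3 TPM to 97.3 TPM in normoxia and from 25.4 TPM through 77.7 TPM to 96.2 TPM after IH, so the groups share most of their range while the medians lie apart. The change was 0.41 ± 0.12 (adjusted p = 0.00798), with a higher mean at 8 of 8 time points, and 0.28 in TPM as deposited (adjusted p = 0.109). Of 5 tested erythroid markers, 4 rose in the liver, with a summed median of 2741 TPM (range 1841 to 3949) in normoxia and 4248 TPM (1260 to 29994) after IH. The part of red cell transcripts in the rise of Bnip3l was not tested. P4ha2 went from 3.86 ± 1.02 TPM to 2.85 ± 1.24 TPM, a change of -0.32 ± 0.12 (adjusted p = 0.0434). Without the library that stood apart, these calls held at 0.41 for Bnip3l and -0.39 for P4ha2, and Bnip3 passed as well at 0.39 (adjusted p = 0.0474). That library had 29.7 TPM of Bnip3 against 200.1 ± 65.7 TPM in the other 23. Without the libraries of replicate 1, or of replicate 2, 0 of the members passed in the liver.

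Ndrg1 in the liver went from 5.73 ± 4.02 TPM to 7.56 ± 3.61 TPM, a difference of 1.83 TPM and a log2 change of 0.58 ± 0.20 (adjusted p = 0.0298), or 0.49 (adjusted p = 0.042) without the library that stood apart. In TPM as deposited it did not pass (0.46, adjusted p = 0.105). Kidney transcripts were also higher in the liver libraries of the IH group. The summed level of 8 kidney markers had a median of 3.80 TPM (range 0.951 to 114) in normoxia livers and of 83.3 TPM (38.1 to 410) in IH livers, which is 0.188% of the median in IH kidneys. That percentage of the Ndrg1 level of IH kidneys is 1.59 TPM, close to the difference of 1.83 TPM. In the other 4 tissues outside the kidney the median kidney sum was at most 7.87 TPM in either treatment. Whether kidney RNA contributed to Ndrg1 in the liver was not tested beyond these values.

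In the kidney Car9, Bnip3l and Kdm3a fell and 0 of 10 members rose, where 8.25% of all genes rose and 11.5% fell. Car9 ran from 6.16 TPM through 12.3 TPM to 19.4 TPM in normoxia and from 5.10 TPM through 8.69 TPM to 13.0 TPM after IH. Most IH libraries lie below the normoxia median, and the mean was lower after IH at 8 of 8 time points, for a change of -0.39 ± 0.08 (adjusted p = 0.000436). Car9 thus rose in the lung and fell in the kidney, the tissue where its level was highest. Bnip3l changed by -0.19 ± 0.05 (adjusted p = 0.00459) and Kdm3a by -0.19 ± 0.06 (adjusted p = 0.0338). Of 6 tested erythroid markers 5 rose in the kidney, and their part in these changes was not tested. Their sums had medians of 4191 TPM (range 2806 to 6215) in normoxia and 6569 TPM (3598 to 17436) after IH. Kdm3a lost its call in TPM as deposited (adjusted p = 0.132).

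In the cerebellum Ddit4 rose and Bnip3l fell, where 9.76% of all genes rose and 5.24% fell. Ddit4, the mTORC1 inhibitor, ran from 17.9 TPM through 23.8 TPM to 55.3 TPM in normoxia and from 12.4 TPM through 39.5 TPM to 71.3 TPM after IH. The ranges overlap, with 12.4 TPM in the IH library that stood apart, and the mean was higher after IH at 8 of 8 time points. The change was 0.48 ± 0.11 (adjusted p = 0.00154) and 0.50 without that library. Bnip3l went from 87.8 ± 18.7 TPM to 78.3 ± 26.9 TPM, a change of -0.21 ± 0.07 (adjusted p = 0.0223), or -0.19 (adjusted p = 0.0225) without that library, and it did not pass in TPM as deposited (-0.22, adjusted p = 0.279). Without the libraries of replicate 2, 0 members passed in the cerebellum, and without those of replicate 3, 5 did. Liver and heart transcripts were present in the cerebellum of both treatments. The liver marker sum had a median of 3036 TPM (range 89.2 to 6062) in normoxia and 2391 TPM (27.1 to 4527) after IH. The heart marker sum had a median of 683 TPM (83.8 to 2789) and 405 TPM (104 to 6312). None of the 5 liver and 8 heart markers tested there passed, and the part of these transcripts in the members' values was not tested. Ankrd37, whose level was highest in this tissue, stood at 0.13 (95% interval -0.07 to 0.33).

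In muscle 0 of 10 members passed in limma, where 5.48% of all genes rose and 4.89% fell. The log2 differences lay between -0.11 for Adm and 0.18 for Car9, and the widest interval was that of Ddit4, from -0.32 to 0.46. None of the 10 had an unadjusted p under 0.05. In TPM as deposited, Bnip3, Bnip3l and Kdm3a passed with rises of 0.18, 0.18 and 0.20. Bnip3 went from 183 ± 25.7 TPM to 206 ± 26.3 TPM, and the median of all muscle genes was 0.09 on that scale.

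**Figure D4:**
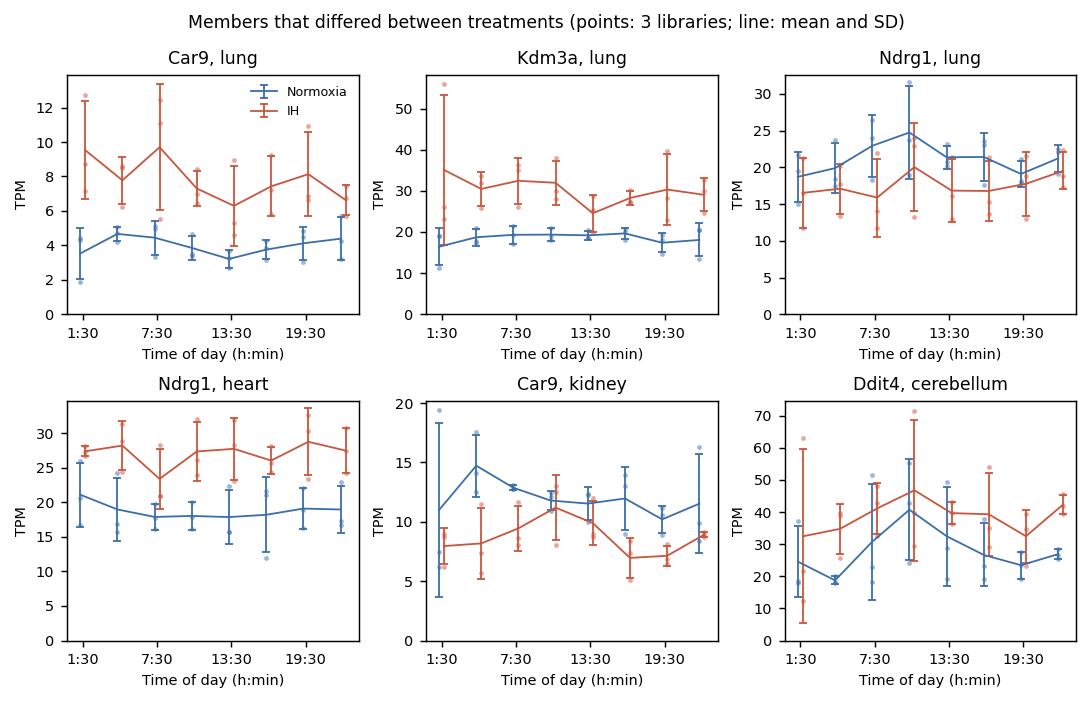
TPM over the day for 6 pairs of gene and tissue, with points for the 3 libraries and lines for the mean and SD of each treatment. IH means lie above normoxia at every time point for Car9 and Kdm3a in the lung, Ndrg1 in the heart and Ddit4 in the cerebellum, and below it for Ndrg1 in the lung and Car9 in the kidney.

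The response itself was compared between tissues with an interaction term. Of 150 differences between tissue pairs, 52 passed. The 150 include 5 pairs of Car9 with the liver, where its level is below the minimum of the tests within tissues, and without these 49 of 145 passed. Pairs with the lung accounted for 30 of 50, where 52.9% (liver), 49% (kidney), 41.2% (muscle), 56.3% (heart) and 52.5% (cerebellum) of all genes passed. The other pairs accounted for 22 of 100, where 22% of all gene tests passed. The members therefore differed about as often as genes in general. The response of Kdm3a in the lung lay above that of each of the other 5 tissues, and that of Ndrg1 below each of them. The response of Car9 lay above that of the kidney, muscle, heart and cerebellum, and above that of the liver (0.47, adjusted p = 0.0048), where its level of 0.634 TPM makes the comparison uncertain. Car9 differed most between the lung and kidney, by 0.99 ± 0.15 (adjusted p = 6.43e-09). Ndrg1 differed most between the lung and liver, by -1.16 ± 0.19 (adjusted p = 3.07e-08), followed by the lung and heart, by -0.98 ± 0.19 (adjusted p = 1.59e-06). Kidney transcripts were higher in IH livers, as given above, and their part in the lung and liver difference of Ndrg1 was not tested. Kdm3a in the lung differed by between 0.27 against muscle (adjusted p = 0.0449) and 0.58 against the cerebellum (adjusted p = 3.81e-06). Without the liver and cerebellum libraries that stood apart 56 of the 150 passed. In TPM as deposited Car9 and Kdm3a kept all 5 of their differences with the lung and Ndrg1 kept 2. With detected genes in the fit each kept 1. Without the libraries of replicate 1, and also without those of replicate 2, 20 of the 150 differences passed.

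Sampling every 3 hours also showed how the members varied over the day. Hours are those of the labels, which do not relate them to the earlier light phase. A cosine of 24 hours was fitted to the log2 values in each tissue and treatment, and the amplitude is the height of the fitted peak above the fitted mean, on the log2 scale. In normoxia 17 of 59 member tests passed an adjusted p of 0.05, and after IH 9 of 59 did. By tissue, the kidney had 7 of 10 in normoxia (21% of all genes) and 4 of 10 after IH (5.74%). In the normoxia kidney 2 of the 7, Bnip3 and Ndrg1, passed in TPM as deposited, on linear TPM and in the rank test, while Bnip3l, Ddit4, Kdm3a, P4ha1 and P4ha2 passed in none of these. The other calls that did not pass in TPM as deposited were P4ha1 in the IH kidney, the normoxia lung and the IH muscle, P4ha2 in the IH lung, and Bnip3 in normoxia muscle. The liver had 5 of 9 (17.7%) and 1 of 9 (2.63%), the lung 3 of 10 (9.15%) and 2 of 10 (4.65%), and muscle 2 of 10 (6.38%) and 1 of 10 (8.83%). Without the liver library that stood apart 3 of 8 passed in the IH liver. The share of all genes in that fit is not given. With the replicate number as a block 4 of 10 members passed in normoxia muscle (share of all genes not given). The heart had 0 of 10 (0.626%) and 1 of 10 (4.17%), and the cerebellum 0 of 10 in both treatments (0% and 0.0134%). A rank test of the JTK type on TPM found 9 of 59 in normoxia (2.36% of all gene tests) and 3 of 59 after IH (1.63%).

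Adm in the lung had the largest amplitude of the members that passed in that tissue. Its mean went from 4.10 ± 0.184 TPM at 7:30 to 13.8 ± 8.77 TPM at 16:30 in normoxia, and from 3.11 ± 1.38 TPM at 7:30 to 16.4 ± 5.38 TPM at 22:30 after IH (SD, n = 3). The fitted peaks fell at 19:44 and 19:59, with amplitudes of 0.64 ± 0.09 (adjusted p = 0.000383) and 0.94 ± 0.12 (adjusted p = 0.000102). Both also passed the rank test. The difference in rhythm between treatments did not pass (unadjusted p = 0.174). P4ha2 in the lung peaked at 13:43 in normoxia and at 15:00 after IH, with amplitudes of 0.26 ± 0.05 and 0.27 ± 0.07 (adjusted p = 0.00803 and 0.0499), and P4ha1 at 16:16 in normoxia.

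**Figure D5:**
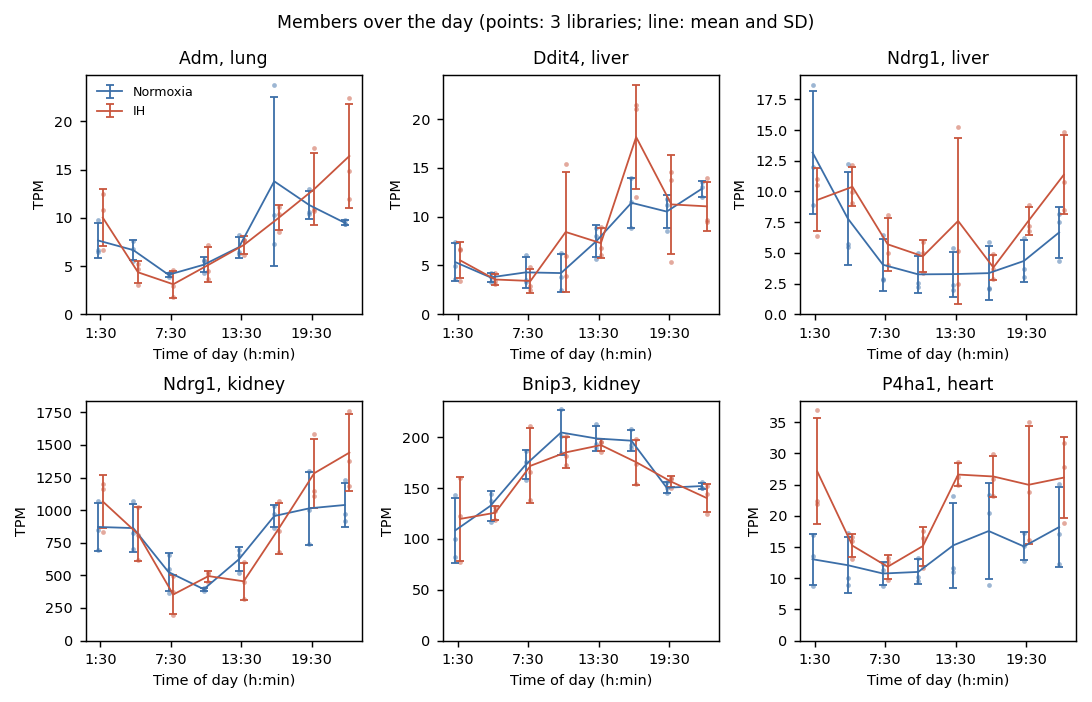
TPM over the day for 6 pairs of gene and tissue, with points for the 3 libraries and lines for the mean and SD of each treatment. Adm in the lung and Ndrg1 in the kidney are lowest at 7:30 or 10:30 in both treatments, and Bnip3 in the kidney is highest at 10:30 or 13:30.

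Ndrg1 in the kidney, the member with the highest level, went from 394 ± 10.2 TPM at 10:30 to 1040 ± 166 TPM at 22:30 in normoxia and from 353 ± 151 TPM at 7:30 to 1441 ± 293 TPM at 22:30 after IH. The fitted peaks fell at 21:58 and 22:06, with amplitudes of 0.63 ± 0.08 (adjusted p = 2.67e-05) and 0.95 ± 0.10 (adjusted p = 1.69e-06), and both passed the rank test. In the liver Ndrg1 peaked at 1:28 in normoxia, with an amplitude of 0.87 ± 0.13 (adjusted p = 0.000133). Ddit4 in the liver had amplitudes of 0.86 ± 0.10 in normoxia (adjusted p = 6.39e-06) and 1.02 ± 0.14 after IH (adjusted p = 0.000242), with peaks at 19:09 and 17:16. Without the liver IH library that stood apart its amplitude after IH was 0.99 (adjusted p = 0.000183). Bnip3 (0.75, adjusted p = 0.00261) and Ndrg1 (0.65, adjusted p = 0.000128) then passed as well, so 3 of 8 members passed in the IH liver. The mean of Ddit4 went from 3.78 ± 0.451 TPM at 4:30 to 12.9 ± 0.813 TPM at 22:30 in normoxia and from 3.41 ± 1.22 TPM at 7:30 to 18.2 ± 5.35 TPM at 16:30 after IH. In the kidney Ddit4 peaked at 18:57 and 17:40, and in normoxia muscle at 13:24.

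Bnip3 had a fitted peak in 3 tissues of normoxia mice, at 13:36 in the liver (amplitude 0.40 ± 0.06), 13:11 in the kidney (0.36 ± 0.05) and 11:15 in muscle (0.14 ± 0.04). After IH it passed in the kidney, at 12:57 (0.32 ± 0.05). The collagen prolyl 4-hydroxylase genes peaked in the normoxia liver at 16:02 (P4ha1) and 15:49 (P4ha2), and in the normoxia kidney at 17:52 and 18:02. P4ha1 passed after IH in the kidney (19:42), the heart (19:41) and muscle (21:43), in each case neither on linear TPM nor in the rank test. As given above, Bnip3 in normoxia muscle and P4ha1 and P4ha2 in the normoxia kidney did not pass in TPM as deposited. Kdm3a and Bnip3l passed only in the normoxia kidney, and Ankrd37 and Car9 in no tissue under either treatment. A rhythm that passed in one treatment and not in the other was not shown to differ. The test of the difference between treatments passed for 0 of 59 member tests and 0% of all genes in the 6 tissues (limma). At an unadjusted p of 0.05 it found 2 member tests, Ddit4 in the liver (p = 0.0338) and Car9 in the heart (p = 0.0324), among 2038 of 80157 gene tests.

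Other genes of the HIF pathway, on lists that were written with earlier results known, are described by their counts. The list counts here and below use scaled values alone, on which some falls of members in the lung depended. The median of all lung genes was 0.21 in TPM as deposited, and no list count is given on that scale. Of 48 other HIF targets tested in the lung, 9 rose and 31 fell, where 28.9% of all genes rose and 41.5% fell. Their median was -0.25 against -0.08 for all genes. Vegfa, the angiogenic growth factor, rose by 0.55 ± 0.07 and the glycolytic regulator Pfkfb4 by 0.55 ± 0.06. The glucose transporter gene Slc2a1 changed by -0.69 ± 0.11 and the glycolytic gene Gapdh by -0.68 ± 0.13. In the heart 18 of 47 rose and 5 fell (median 0.16 against 0.04), with rises of Pfkfb3 (0.56 ± 0.17) and Igfbp3 (0.49 ± 0.09) and falls of Vegfa (-0.73 ± 0.12) and Wsb1 (-0.59 ± 0.08). In the liver 1 of 36 rose (Mxi1, 0.29 ± 0.07) and 11 fell, led by Eno1 at -0.59 ± 0.11. In the kidney 4 of 44 rose and 3 fell, in muscle 2 of 47 and 3, and in the cerebellum 4 of 46 and 2, where Higd1a (0.56 ± 0.15) and Hilpda (0.44 ± 0.09) rose. Without the cerebellum library that stood apart 7 rose and 5 fell, and the liver counts were the same without its own. Of all genes, 28% rose and 17.3% fell in the heart, 10.9% and 13.3% in the liver, and 8.25% and 11.5% in the kidney. The shares were 5.48% and 4.89% in muscle and 9.76% and 5.24% in the cerebellum.

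Among 10 oxygen sensing genes, 3 of 9 tested rose and 5 fell in the lung, where 28.9% of all genes rose and 41.5% fell. Egln2, a prolyl hydroxylase, rose by 0.21 ± 0.05 and Arnt by 0.18 ± 0.04, while Epas1 changed by -0.53 ± 0.12 and Hif1a by -0.34 ± 0.07. In the heart 2 of 8 rose, Epas1 by 0.37 ± 0.09 and the asparaginyl hydroxylase gene Hif1an by 0.35 ± 0.08. In the cerebellum 2 of 10 rose (Egln2, 0.51 ± 0.11, and Hif1an, 0.28 ± 0.08), in the liver 1 of 8 (Vhl, 0.33 ± 0.09), in the kidney 1 of 9 rose and 1 fell, and in muscle 0 of 9 passed. Without the liver library that stood apart 2 of 8 rose there. Of all genes, 28% rose in the heart, 9.76% in the cerebellum and 10.9% in the liver, and 8.25% rose and 11.5% fell in the kidney. The receptor and ligand genes of the adrenomedullin family fell in the lung in 5 of 5 tested, with a median of -0.36 against -0.08 for all genes, of which 41.5% fell, with Ackr3 at -0.75 ± 0.08 and Ramp2 at -0.68 ± 0.10. In the heart 2 of 5 rose, Ackr3 by 0.35 ± 0.10 and the receptor gene Calcrl by 0.34 ± 0.06, and in the liver 2 of 3. In all, 0 of 5, 4 and 6 passed in the kidney, muscle and cerebellum, and 1 of 6 in the cerebellum without the library that stood apart.

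Of 8 other mitophagy genes, 1 rose and 5 fell in the lung, led by Sqstm1 at -0.46 ± 0.08, and 1 rose (Fundc1, 0.48 ± 0.09) and 1 fell (Sqstm1, -0.56 ± 0.10) in the liver. Of all genes, 28.9% rose and 41.5% fell in the lung, and 10.9% rose and 13.3% fell in the liver. The shares were 28% and 17.3% in the heart, 5.48% and 4.89% in muscle, and 9.76% and 5.24% in the cerebellum. In the heart 2 rose (Bcl2l13, 0.47 ± 0.10, and Pink1, 0.24 ± 0.08) and 1 fell, in muscle 2 fell, in the cerebellum 1 rose (2 without the library that stood apart) and in the kidney 0 passed. Of the members' paralogues and partners, 4 of 12 rose and 4 fell in the lung. Kdm3b rose by 0.44 ± 0.06 beside Kdm3a, Ndrg2 rose by 0.41 ± 0.07 where Ndrg1 fell, and Car2 changed by -0.55 ± 0.06 where Car9 rose. P4hb, the partner subunit of the collagen enzyme, changed by -0.72 ± 0.10. In the heart P4hb rose by 0.23 ± 0.06 beside P4ha1. In the liver 1 of 9 rose and 3 fell, in muscle 2 of 12 rose and 1 fell, and 0 of 13 passed in the kidney and in the cerebellum.

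Ddit4 also answers to glucocorticoids and to the integrated stress response, and genes of both were counted. Their part in the changes of Ddit4 was not tested. Of 12 glucocorticoid targets, 1 rose and 5 fell in the lung, 4 rose in the heart, 2 in the kidney, 1 each in the liver and muscle, and 0 in the cerebellum. Of all genes, 28.9% rose and 41.5% fell in the lung, 28% rose and 17.3% fell in the heart and 9.76% rose in the cerebellum. In the kidney 8.25% rose and in muscle 5.48%, and in the liver 10.9% rose and 13.3% fell. Of 9 integrated stress response genes tested in the cerebellum 3 rose, among them Ddit3 (0.34 ± 0.08), and in the lung 5 of 9 fell, led by Asns at -0.59 ± 0.09. In the heart 4 of 9 rose and 1 fell, in the kidney 1 of 7 and in muscle 1 of 9 rose, and in the liver 0 of 8 passed. Without the libraries that stood apart 4 of 9 rose in the cerebellum and 1 of 8 fell in the liver.

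The genes most like each member were sought over the 96 means per tissue, treatment and time point, centred within tissue, among 9875 genes (10917 over 80 means for Car9). The points share libraries and scaling, so the correlations are descriptions. Bnip3l was most like Map1lc3b (Pearson's r = 0.82), which encodes the autophagosome protein LC3B that NIX binds, and Mtmr2 (0.78). Bnip3 was most like Dnajb6 (0.82) and Lin7c (0.76). Ddit4 was most like Tsc22d3 (0.69), the glucocorticoid-induced leucine zipper gene, and Abhd8 (0.61). P4ha1 was most like the chaperone genes Dnaja4 (0.79) and Hspa5 (0.79), and Kdm3a was most like Rictor (0.78) and Smc5 (0.78). Car9 was most like Napg (0.78) and Tatdn3 (0.72), Ndrg1 most like Nt5e (0.67) and Ethe1 (0.67), and P4ha2 most like Atp2a2 (0.69) and Ankrd9 (0.64). Adm was most like Eln (0.58) and Rerg (0.58), and Ankrd37 like Shld1 (0.56) and Gpcpd1 (0.52). No member was among the 2 genes most like another member. Bnip3 and Bnip3l nevertheless correlated at 0.73 and P4ha1 and P4ha2 at 0.63. The other member pairs ran from -0.46 (Kdm3a and P4ha1) to 0.42 (Adm and P4ha1).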

How the data were processed

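RNA was measured by poly(A) RNA sequencing in 6 tissues. The authors quantified the reads with kallisto against Ensembl transcripts and deposited gene values in TPM, in 12 tables with 1 column per library, and the submitters' processing notes also name FastQC 0.11.3, bcl2fastq, DESeq2 and mm10. Counts were not used here, so the depth is unknown and the number of libraries limits the precision. The authors compared treatments with DESeq2 on estimated counts. Here limma took its place, because the unit is TPM.

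Libraries were grouped by the tissue, treatment and time in the labels. Values were scaled by the median of ratios within each tissue, and over all normoxia libraries together for the levels. They were tested as log2(scaled TPM + 0.5) with limma 3.58.1 (intensity trend, R 4.3.3) over all genes whose mean reached 1 TPM. Benjamini-Hochberg adjustment was made in each tissue, in each tissue and treatment for rhythms, and in each pair of tissues for levels and responses. The threshold was 0.05. IH was compared with normoxia over 24 libraries each, levels and responses were compared between tissues, and rhythms were tested with a cosine of 24 hours. All tests are two-sided. The labels give replicate numbers and not mice, so p-values measure the spread between these libraries, and the libraries of a treatment span 8 time points. In muscle the deviations of same-numbered libraries correlated between treatments for every number (Pearson's r = 0.155, 0.376 and 0.651 over 12824 genes). This is a hint from the data that the numbers may pair them there. The deviations are taken from the mean of each treatment, so these correlations are not independent. Tables and figures used Python 3.11.15, numpy 2.4.6, scipy 1.17.1, pandas 2.3.3 and matplotlib 3.10.9, and the scripts were tested on simulated data.

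The members and gene lists were chosen with earlier results of these data known. The text names the 10 members, at most 2 rises and 2 falls of each pathway list and tissue among called genes whose mean reached 5 TPM, and the 2 genes most correlated with each member. Alternatives were other pseudocounts (0.1 and 1), TPM as deposited, other minimum levels, the replicate number, time point or genes detected as terms, subsets of replicates and a rank test. A term for each presumed mouse across tissues, and rhythms, responses and lists without the liver and cerebellum libraries that stood apart, were added after seeing the data.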

Additional observations from a re-analysis of the deposited data

Results flagged for a closer look

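Each member had at least 1 pair of tissues in which its response to IH differed by the interaction test (limma, Benjamini-Hochberg over all genes of the pair), and the pair with the largest such difference is given as the log2 change in the first tissue minus that in the second. For scale, 41.2% to 56.3% of all genes passed in each single pair with the lung, and 22% of all gene tests passed in the other pairs. The share of all genes with at least 1 such pair is not given. Car9 differed by 0.99 ± 0.15 between the lung and kidney (adjusted p = 6.43e-09), and Kdm3a by 0.58 ± 0.11 between the lung and cerebellum (adjusted p = 3.81e-06). Ankrd37 differed by 0.48 ± 0.15 between the lung and heart (adjusted p = 0.00323), and P4ha1 by -0.85 ± 0.17 between the same tissues (adjusted p = 4.79e-06). Ndrg1 differed by -1.16 ± 0.19 between the lung and liver (adjusted p = 3.07e-08), where Bnip3l differed by -0.68 ± 0.10 (adjusted p = 1.56e-09), Bnip3 by -0.57 ± 0.13 (adjusted p = 0.000131) and Adm by -0.51 ± 0.17 (adjusted p = 0.0085). Kidney marker sums had a median of 83.3 TPM (range 38.1 to 410) in IH livers and 3.80 TPM in normoxia livers. The part of kidney transcripts in the difference of Ndrg1 was not tested. Ddit4 differed by -0.75 ± 0.23 between the lung and cerebellum (adjusted p = 0.00372). P4ha2 differed by -0.44 ± 0.15 between the liver and kidney (adjusted p = 0.016). In TPM as deposited, the differences of Adm (-0.13, adjusted p = 0.539), Bnip3 (-0.14, adjusted p = 0.441), Bnip3l (-0.25, adjusted p = 0.0925) and Ddit4 (-0.44, adjusted p = 0.12) did not pass. With genes detected as a term those 4 and those of Ankrd37 and P4ha1 did not pass (adjusted p = 0.0598 to 0.926). All 10 passed without the liver and cerebellum libraries that stood apart. The number of genes detected moved with treatment in the lung and heart, and its part in these differences was tested only as a term in the fit.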

How the results depend on the processing

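Of the 20 member changes that passed, 1 (Car9 in the lung, log2 0.27 to 0.89) passed under all 14 alternatives, and 8 changed sign under at least 1. Of 283 values of these changes, 207 kept their direction and side of the threshold, 63 kept the direction and lost the call, and 13 reversed. Of the 39 that did not pass, 12 passed under at least 1 alternative. Leaving out a replicate number also leaves fewer libraries. The cause of these changes was not tested.

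In TPM as deposited the members called were 5 (lung), 1 (liver), 3 (muscle) and 1 (cerebellum). With genes detected as a term they were 3 in the lung and 0 in the heart, and with no minimum level 1 in the liver. In the libraries of replicate number 1 alone they were 1 (liver), 0 (kidney) and 1 (cerebellum). In those of number 2 alone they were 1 each in the liver, kidney and heart. In those of number 3 alone they were 5 (lung), 0 (liver), 1 (heart) and 0 (cerebellum). Leaving out a replicate number gave 4 to 8 (lung), 0 to 3 (liver) and 0 to 5 (cerebellum). Differences of the response between tissues numbered 20 with genes detected as a term and 20 to 64 leaving out a replicate. Apart from the rank test, the share of all genes that passed under these alternatives, here and below, is not given. A changed count is therefore not shown to be particular to the members.

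Reversed values in the lung were, in TPM as deposited, Bnip3 0.057, Bnip3l 0.027 and Ddit4 0.029. With genes detected as a term they were Ankrd37 -0.19, Bnip3l 0.10, Ddit4 0.088 and P4ha1 0.48, and in replicate number 3 alone Ankrd37 -0.18, Ddit4 0.14 and P4ha1 0.11. In the liver, number 3 alone gave Bnip3l -0.12 and P4ha2 0.12, and genes detected as a term gave Adm -0.047 in the heart. With that term the response differences were 0.11 for Adm (lung minus liver), -0.043 for Ankrd37 and 0.39 for P4ha1 (lung minus heart). The level of Ddit4 in the lung minus the heart was 0.20 as deposited.

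Rhythmic members in the lung were 1 to 2 in normoxia leaving out a replicate. After IH they were 1 in TPM as deposited, in a fit on linear TPM and in the rank test, and 0 to 1 leaving out a replicate. In the liver they were 3 to 5 in normoxia and 1 to 3 after IH, and 3 after IH without the library that stood apart. In the kidney, normoxia gave 2 in TPM as deposited, on linear TPM and in the rank test and 2 to 4 leaving out a replicate, and IH gave 1 in the rank test and 2 to 6. In muscle, normoxia gave 1 as deposited and on linear TPM and 0 in the rank test, and 0 to 1 leaving out a replicate. IH gave 0 in each of these. In the heart, IH gave 0 on linear TPM and in the rank test and 0 to 2 leaving out a replicate.

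With the replicate block, rhythmic members were 4 in normoxia muscle and 2 in the IH liver, and differences of the response were 54. No other count of member calls moved by over 1.5 times under the block. Outside muscle, same-numbered libraries did not deviate together in every number (r from -0.519 to 0.287 in the lung, and 0.669, -0.065 and 0.487 in the liver). Leaving the libraries that stood apart out of the rhythms, responses and lists was also chosen after seeing the data. With the mouse term, chosen likewise, 61 response differences and 131 level differences passed.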
